A study of Mus musculus with 2 samples.

Results

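The open chromatin around 10 immediate early genes was examined in the gastrocnemius, the large calf muscle, of the mouse. The rule names the genes and uses no measured value, but the choice was made with earlier results of these data known: Jun, Junb, Jund, Fos, Fosb, Fosl2 and Atf3, which encode members of the AP-1 and ATF family, and Egr1, Myc and Ier2. All 10 were found among 21829 protein-coding genes of the GENCODE M21 annotation on the mouse build mm10. The chromatin was measured by DNase-seq, in which the enzyme DNase I cuts nuclear DNA where it is accessible. There were 2 samples in 1 group, biological replicates 1 and 2, from male adult B6CASTF1/J mice aged 18 to 20 months. B6CASTF1/J is an F1 hybrid, and the files do not separate its alleles. The labels name no treatment, no control, no younger age and no other tissue, and they give both samples the same donor label but different biosample labels. Whether the samples came from separate animals is therefore not known, and the SDs given (n = 2) may be technical. With 1 group, no difference between conditions could be tested and no p-value is given.

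Immediate early genes are transcribed within minutes of a stimulus and need no new protein synthesis for it. Kinase cascades act on factors that already sit at their promoters: SRF, with its ETS-domain partners, on the CArG box of the serum response element, and CREB-type factors on the cAMP response element (CRE). The JUN and FOS proteins that are then made pair into AP-1, which binds its own short site at many enhancers. In skeletal muscle these genes are known to respond to contraction, stretch and injury. DNase-seq reads the accessibility of the DNA and not the RNA of a gene.

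The sequences that the motif results below turn on are given first, from GRCm38 (mm10), 5′ to 3′ on the strand of the gene. Capitals mark matches to the CArG box, CRE, AP-1, ETS core, MEF2 site, E-box and myogenic E-box. Matches to the GC box, CCAAT box and other motifs searched are left in lower case. The Jun and Atf3 stretches lie before the start site and were read from the RefSeq promoter table, and the other sequences were read from the genome. The Fos stretch (chr12:85473571-85473870, plus strand) and the Fosb stretch (chr7:19310131-19310330, minus strand) are shown for their CArG boxes. The Fos stretch ends inside a myogenic E-box at -19 bp, which touched a footprint in both replicates and is left unmarked because it is cut.
Fos promoter: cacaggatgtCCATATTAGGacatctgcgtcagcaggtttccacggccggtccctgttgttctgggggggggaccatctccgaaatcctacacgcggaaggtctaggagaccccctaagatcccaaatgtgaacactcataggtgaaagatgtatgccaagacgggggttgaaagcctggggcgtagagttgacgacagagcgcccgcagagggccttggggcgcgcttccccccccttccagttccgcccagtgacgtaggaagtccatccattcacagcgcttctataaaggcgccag
Fosb promoter: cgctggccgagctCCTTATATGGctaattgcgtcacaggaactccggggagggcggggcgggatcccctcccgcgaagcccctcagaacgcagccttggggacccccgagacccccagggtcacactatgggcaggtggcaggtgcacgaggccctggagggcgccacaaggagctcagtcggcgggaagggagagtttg
The Jun stretch (chr4:95052223-95052472, minus strand) and the Atf3 stretch (chr1:191183341-191183583, minus strand) each hold a MEF2 match next to the start site.
Jun promoter: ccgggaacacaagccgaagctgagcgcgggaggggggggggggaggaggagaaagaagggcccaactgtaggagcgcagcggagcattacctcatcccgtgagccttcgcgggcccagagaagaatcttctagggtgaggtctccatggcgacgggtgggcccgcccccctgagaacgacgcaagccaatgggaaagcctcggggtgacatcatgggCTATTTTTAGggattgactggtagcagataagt
Atf3 promoter: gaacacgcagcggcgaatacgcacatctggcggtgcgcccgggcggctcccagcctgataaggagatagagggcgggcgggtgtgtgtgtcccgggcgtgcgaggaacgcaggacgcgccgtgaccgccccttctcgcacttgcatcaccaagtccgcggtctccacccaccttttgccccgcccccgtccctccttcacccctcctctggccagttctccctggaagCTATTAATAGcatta
The CRE of Jund (chr8:70698725-70698752, plus strand) and the AP-1 match in the 5′ untranslated exon of Fosl2 (chr5:32135844-32135870, plus strand) are shown with 10 bases on each side.
Jund CRE: cccacccccaTGACGTCAacccacaatg
Fosl2 AP-1 site: gccattgtagTGACTCAtctcgggcag
The remaining stretches are regions away from the start sites. They are the middle of the strongest Fos region (chr12:85455191-85455490, plus strand), the Fos region downstream of the gene (chr12:85485961-85486240, plus strand), the Junb region downstream of the coding exon (chr8:84976541-84976740, minus strand), the Atf3 region (chr1:191224321-191224540, minus strand) and a Fosb region whose AP-1 match carried a footprint (chr7:19327221-19327420, minus strand).
Fos upstream region: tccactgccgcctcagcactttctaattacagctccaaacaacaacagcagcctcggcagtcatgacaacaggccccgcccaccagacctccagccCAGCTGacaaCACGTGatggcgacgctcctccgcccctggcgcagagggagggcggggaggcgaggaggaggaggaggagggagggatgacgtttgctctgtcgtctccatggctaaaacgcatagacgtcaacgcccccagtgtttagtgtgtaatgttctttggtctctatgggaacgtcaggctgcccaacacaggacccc
Fos downstream region: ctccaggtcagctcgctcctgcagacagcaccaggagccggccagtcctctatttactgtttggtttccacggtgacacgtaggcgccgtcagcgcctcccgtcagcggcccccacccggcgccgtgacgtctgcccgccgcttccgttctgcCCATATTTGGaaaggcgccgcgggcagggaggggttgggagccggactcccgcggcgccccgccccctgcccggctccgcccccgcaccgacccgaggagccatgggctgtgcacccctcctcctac
Junb downstream region: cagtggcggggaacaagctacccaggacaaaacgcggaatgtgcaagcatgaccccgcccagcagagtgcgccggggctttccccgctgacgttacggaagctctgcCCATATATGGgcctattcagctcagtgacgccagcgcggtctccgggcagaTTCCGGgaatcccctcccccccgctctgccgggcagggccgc
Atf3 upstream region: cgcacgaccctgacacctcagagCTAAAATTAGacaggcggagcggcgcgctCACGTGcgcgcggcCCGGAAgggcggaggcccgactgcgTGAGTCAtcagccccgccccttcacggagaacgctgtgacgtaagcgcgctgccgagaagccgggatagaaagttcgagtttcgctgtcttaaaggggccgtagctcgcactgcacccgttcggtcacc
Fosb upstream region: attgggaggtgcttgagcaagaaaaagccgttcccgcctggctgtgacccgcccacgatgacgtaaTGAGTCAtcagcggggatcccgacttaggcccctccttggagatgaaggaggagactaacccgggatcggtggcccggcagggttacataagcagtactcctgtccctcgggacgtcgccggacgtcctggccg

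The list of peaks, the narrow regions of high accessibility called by the authors, held 131398 regions in replicate 1 and 91567 in replicate 2. A share of 58.4% of the first and 83.6% of the second overlapped a peak of the other replicate by at least 1 bp. The signal of a peak is in the authors' own unit, was scaled separately in each replicate, and has no stated read depth. Levels are therefore ranked within a replicate. A percentile of promoter signal gives the place of a gene's strongest promoter peak among those of all genes with one. All 8 skeletal muscle fibre markers had a promoter peak in both replicates, but so had 4 of 4 endothelial and 4 of 4 fibro-adipogenic markers, and 3 of 5 macrophage markers (not Ptprc and Csf1r). The median percentile was 53.0 and 39.6 for muscle, 13.9 and 16.7 for endothelial, 32.3 and 26.0 for fibro-adipogenic and 13.9 and 14.8 for macrophage markers with a peak. Liver markers had a peak in 0 of 3 and neuron markers in 1 of 3 (not Neurod6 and Slc17a7), at percentiles 19.7 and 12.8. The percentiles thus did not set the endothelial and macrophage markers apart from this neuron marker. In a bulk sample a region open in few cells and a region weakly open in many cannot be told apart.

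All 10 immediate early genes had a promoter peak in both replicates, where a promoter is 1000 bp on either side of every annotated protein-coding start site. Over all genes the share was 65.7% in replicate 1, 63.6% in replicate 2 and 62.4% in both of them, which is the background for that count. The promoters ranked high among open promoters. Their median percentile was 86.1 in replicate 1 and 85.1 in replicate 2, which gave 85.6 ± 0.719 (mean and SD, n = 2). The median signal of the 10 was 7.07 and 7.46, against 3.16 and 3.41 over all promoters with a peak. In each replicate 9 of the 10 lay above percentile 50, 7 above percentile 75 and 4 above percentile 90. The order ran from Jun, Jund, Atf3 and Egr1 at the top to Junb, Fos and Myc at the bottom. Atf3 and Egr1, and likewise Fosl2 and Ier2, did not differ beyond the spread between replicates. A GC box, which marks GC-rich promoters, lay in all 10 promoters and in 70.4% of all promoters; the part of base composition in the ranks was not tested.

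**Figure D1:**
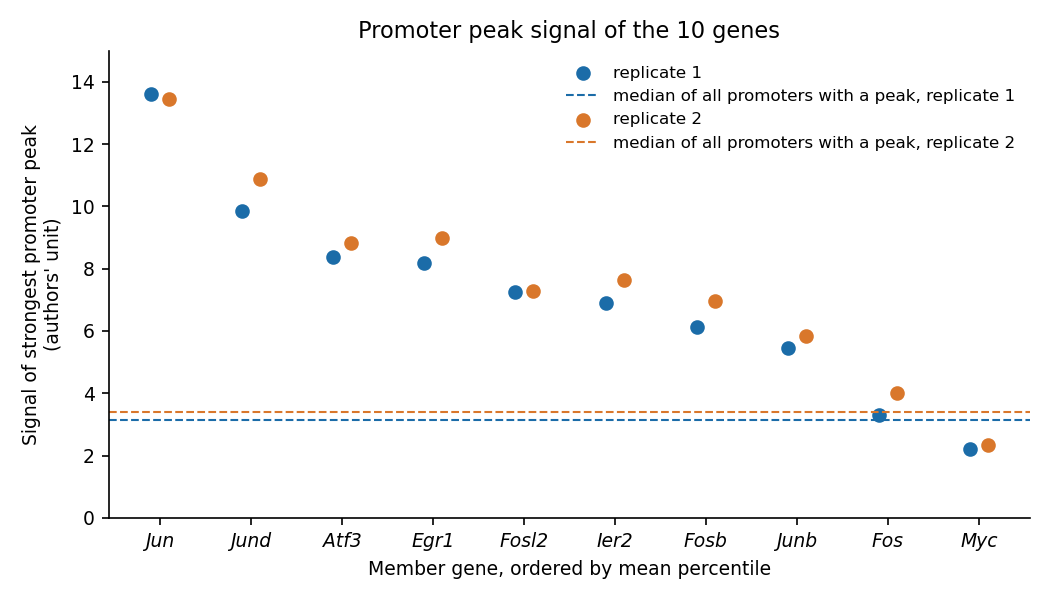
Signal of the strongest promoter peak (vertical axis, authors' unit) of the 10 genes, ordered by mean percentile, with 1 point per replicate; dashed lines are the medians over all promoters with a peak, 3.16 and 3.41. Jun lies highest at 13.6 and 13.4, Fos lies just above the lines and Myc below them in both replicates.

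Among the JUN genes, which encode the AP-1 subunits able to pair with themselves as well as with FOS proteins, Jun stood at the top. Jun (ENSMUSG00000052684.4, chr4:95049034-95052222, minus strand) had a promoter signal of 13.6 in replicate 1 and 13.4 in replicate 2, at percentiles 99.8 and 99.1 of open promoters. The peak (chr4:95052161-95052420) spanned the start site and had the same borders in both replicates. Jund (ENSMUSG00000071076.6, chr8:70698949-70700616, plus strand), the JUN gene known for steady expression in resting cells, had 9.85 and 10.9, at percentiles 96.5 and 96.6. A second peak further upstream (chr8:70698361-70698580) had 5.27 and 6.58. GENCODE and RefSeq place the Jund start 1210 bp apart, and both of these peaks lie between the RefSeq start and the GENCODE start or across the latter. Junb (ENSMUSG00000052837.6, chr8:84974484-84978718, minus strand), which can restrain JUN activity, was the lowest of the 3 with 5.47 and 5.83, at percentiles 74.4 and 74.2. Its strongest promoter peak was only 60 bp wide, from 84978761 to 84978820 in replicate 1 and from 84978741 to 84978800 in replicate 2. The 3 genes thus kept one order in both replicates, with gaps between neighbours well above the difference between replicates.

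The FOS genes, whose proteins bind DNA only as partners of JUN proteins, lay below Jun and Jund. Fosl2 (ENSMUSG00000029135.10, chr5:32135801-32157842, plus strand), which encodes the subunit FRA2, had 7.24 and 7.28, at percentiles 87.2 and 84.2. The peak ended just before the GENCODE start in replicate 1 and reached past it in replicate 2. Near the RefSeq start, 671 bp further into the gene, the peak was weaker, with 2.19 and 2.24. Fosb (ENSMUSG00000003545.3, chr7:19302696-19310051, minus strand) had 6.12 and 6.95, at percentiles 79.8 and 82.3, but this strongest peak (chr7:19308581-19308820) lay inside the gene, with its centre 899 bp behind the nearest start site. The peak upstream of the Fosb start sites (chr7:19310261-19310480) had 5.01 and 4.87. Fos (ENSMUSG00000021250.13, chr12:85473890-85477273, plus strand), the prototype of the class, had 3.30 and 4.003, at percentiles 51.5 and 56.7. The Fos promoter was thus close to the median open promoter in both replicates, although its peak was broad, from 85473461 to 85473980 in replicate 1 and from 85473481 to 85474020 in replicate 2. After the median shift between replicates was removed, Fos differed most between them, with a log2 ratio of replicate 2 to replicate 1 of 0.18, while Jun had -0.12 and the other 8 genes lay between these values.

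Atf3, which encodes a stress-induced factor of the ATF and CREB family that also pairs with JUN proteins, was open at one of its 2 annotated start sites. The gene (ENSMUSG00000026628.13, chr1:191170296-191218039, minus strand) had promoter signals of 8.37 and 8.82, at percentiles 92.3 and 91.3. These peaks lay at the start site inside the long gene record, where RefSeq also places the start, 34706 bp from the first GENCODE start. In replicate 1 the strongest peak (chr1:191183421-191183660) lay just before this start site, and its neighbour across it (chr1:191183281-191183420) had 7.24. In replicate 2 the peak across the start site (chr1:191183181-191183400) was the strongest. The first start site had no promoter peak, and when the first start site of each gene was used alone 9 of the 10 genes had a peak in both replicates, Atf3 being the exception.

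Of the remaining genes, Egr1 and Ier2 had strong and Myc weak promoter peaks. Egr1 (ENSMUSG00000038418.7, chr18:34859823-34864984, plus strand), which encodes a zinc-finger factor and is a classical SRF target, had 8.18 and 8.98, at percentiles 91.5 and 91.8. Its strongest peak (chr18:34859821-34860060) began at the first GENCODE start. The peak at the RefSeq start, 1384 bp further into the record (chr18:34861021-34861240 in replicate 1), had 5.32 and 6.33, at percentiles 72.9 and 78.1. Ier2 (ENSMUSG00000053560.4, chr8:84661331-84662852, minus strand), which encodes a small nuclear protein, had 6.90 and 7.64, at percentiles 85.1 and 86.0, from a peak across its start site with the same borders in both replicates (chr8:84662781-84663000). Myc (ENSMUSG00000022346.15, chr15:61985391-61990374, plus strand), the growth regulator, had 2.21 and 2.35, at percentiles 37.7 and 36.3. It was the only one of the 10 below the median open promoter, and the strongest of its promoter peaks was not the same one in both replicates. With the RefSeq start of each gene in place of the GENCODE starts, all 10 genes had a peak in both replicates and the median percentile was 80.4; Egr1 and Fosb were then ranked by the weaker peaks given above.

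The length of the open stretch told a different order. Sites are the short positions that the authors listed with a false discovery rate under 0.05, and adjoining sites were joined into runs. For each gene the longest run was taken that overlapped the stretch from its first to its last start site, with 1000 bp on each side. Genes with several or distant start sites were thus searched over more sequence. At Myc the longest run at a promoter was 4270 bp in replicate 1 and 4143 bp in replicate 2 (chr15:61984151-61988420 and chr15:61984215-61988357), and covered the annotated start sites and much of the gene. At Jun it was 4197 and 4179 bp, from behind the start site through most of the gene to its upstream flank. Both lay at percentile 99.9 or above over all protein-coding genes, while the median gene with a promoter peak had a run of 873 and 786 bp. The median of the 10 genes was 2092 and 1906.5 bp. Atf3 had 2500 and 2102 bp, Egr1 2089 and 2096 bp, and Fosl2 2095 and 1999 bp. Fosb, with 883 and 886 bp, was near the median open gene in both replicates. Fos, with 847 and 1517 bp, was near it in replicate 1, and Jund had 1354 and 1267 bp. Myc therefore combined the weakest promoter signal of the 10 with a run as long as that of Jun, longer in replicate 1 and shorter in replicate 2, and split into 9 peaks in replicate 1 and 7 in replicate 2. The median share of promoter bases in such sites was 82.3% and 79.1% in the 10 genes, against 34.8% and 31.3% in all genes with a promoter peak.

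Footprints, the short gaps in the cuts that the authors called within accessible DNA, were dense at these promoters. The 10 promoters held 151 in replicate 1 and 147 in replicate 2, or 149 ± 2.83 (mean and SD, n = 2). The median was 14.5 per gene in both replicates, against 7 in genes with a promoter peak. Myc had 23 in each replicate and Egr1 22 and 20, but these genes have several start sites and so wider promoters, 4032 bp at Myc and 3385 bp at Egr1 against 2001 bp for a single start site. Per kb of promoter the 10 genes had a median of 6.25 and 6.01 footprints, and the genes open in both replicates 2.52 and 2.37. Fosl2 had the most per kb, 8.996 and 7.996, and Ier2, with 2.999 and 3.998, and Atf3, with 2.999 in both, the fewest. The Atf3 value is spread over 4002 bp at 2 start sites, and the first of these had no promoter peak. Only 50% and 49.1% of its promoter bases lay in sites, so its low density is not a property of the open start site alone. The number of footprints called at a site depends on how often it was cut, and the part of cut density in these counts was not tested.

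**Figure D2:**
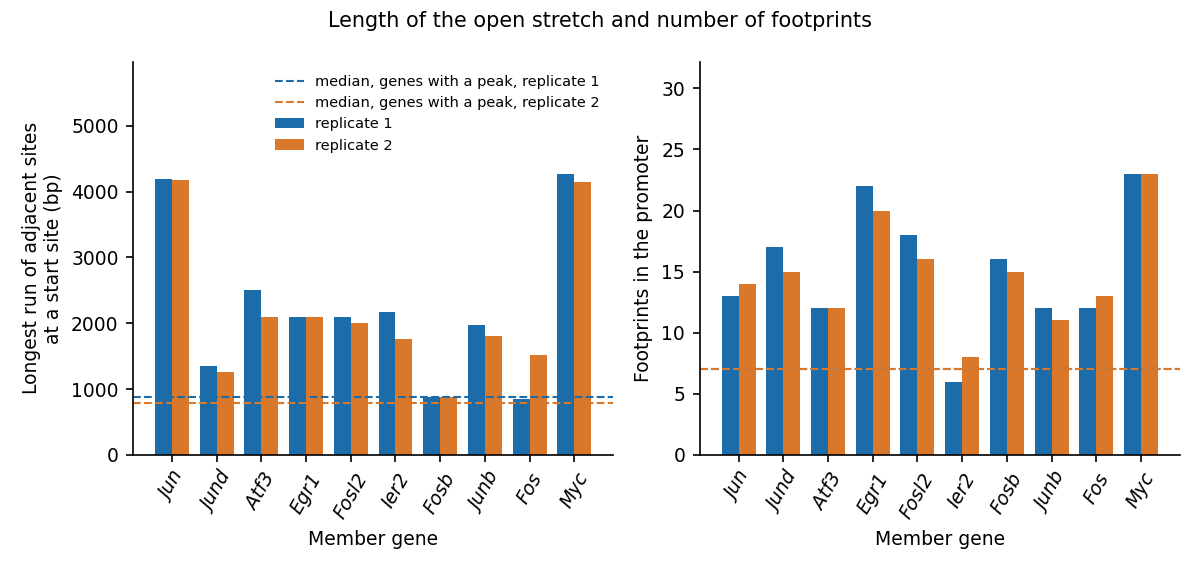
Left, longest run of adjoining sites (bp) at the promoter of each gene, in the order of promoter signal; right, number of footprints in the promoter; bars are replicates and dashed lines the medians over genes with a promoter peak (873 and 786 bp, and 7 footprints in both replicates). Jun and Myc have the longest runs, 4197 and 4270 bp in replicate 1, at opposite ends of the order of signal.

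The gene bodies with 50 kb on each side held 226 peaks in replicate 1 and 218 in replicate 2. Of these, 178 peaks of replicate 1 (78.8%) and 176 of replicate 2 (80.7%) overlapped a peak of the other replicate. Over all peaks the shares were 58.4% and 83.6%. The share in the windows was thus higher in replicate 1 and slightly lower in replicate 2. The median window of the 10 genes held 23.5 and 21.5 peaks, against 11 and 8 for all genes, and 82 and 69 footprints, against 32 and 23. Some of these regions belong to neighbours: at Junb 10 of 27 peaks in replicate 1 lay at promoters of other genes, at Fosb 11 of 31, and at Jun, Fos, Fosl2, Atf3 and Myc none did. Windows of Fosb and Junb were among the fullest, with 31 and 28 peaks and 27 and 29 peaks. Myc had 15 and 12, and Egr1 17 and 10, nearer to the all-gene medians. Jun, with 16 and 7, was below the all-gene median in replicate 2, the only one of the 10 to be so in either replicate.

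**Figure D3:**
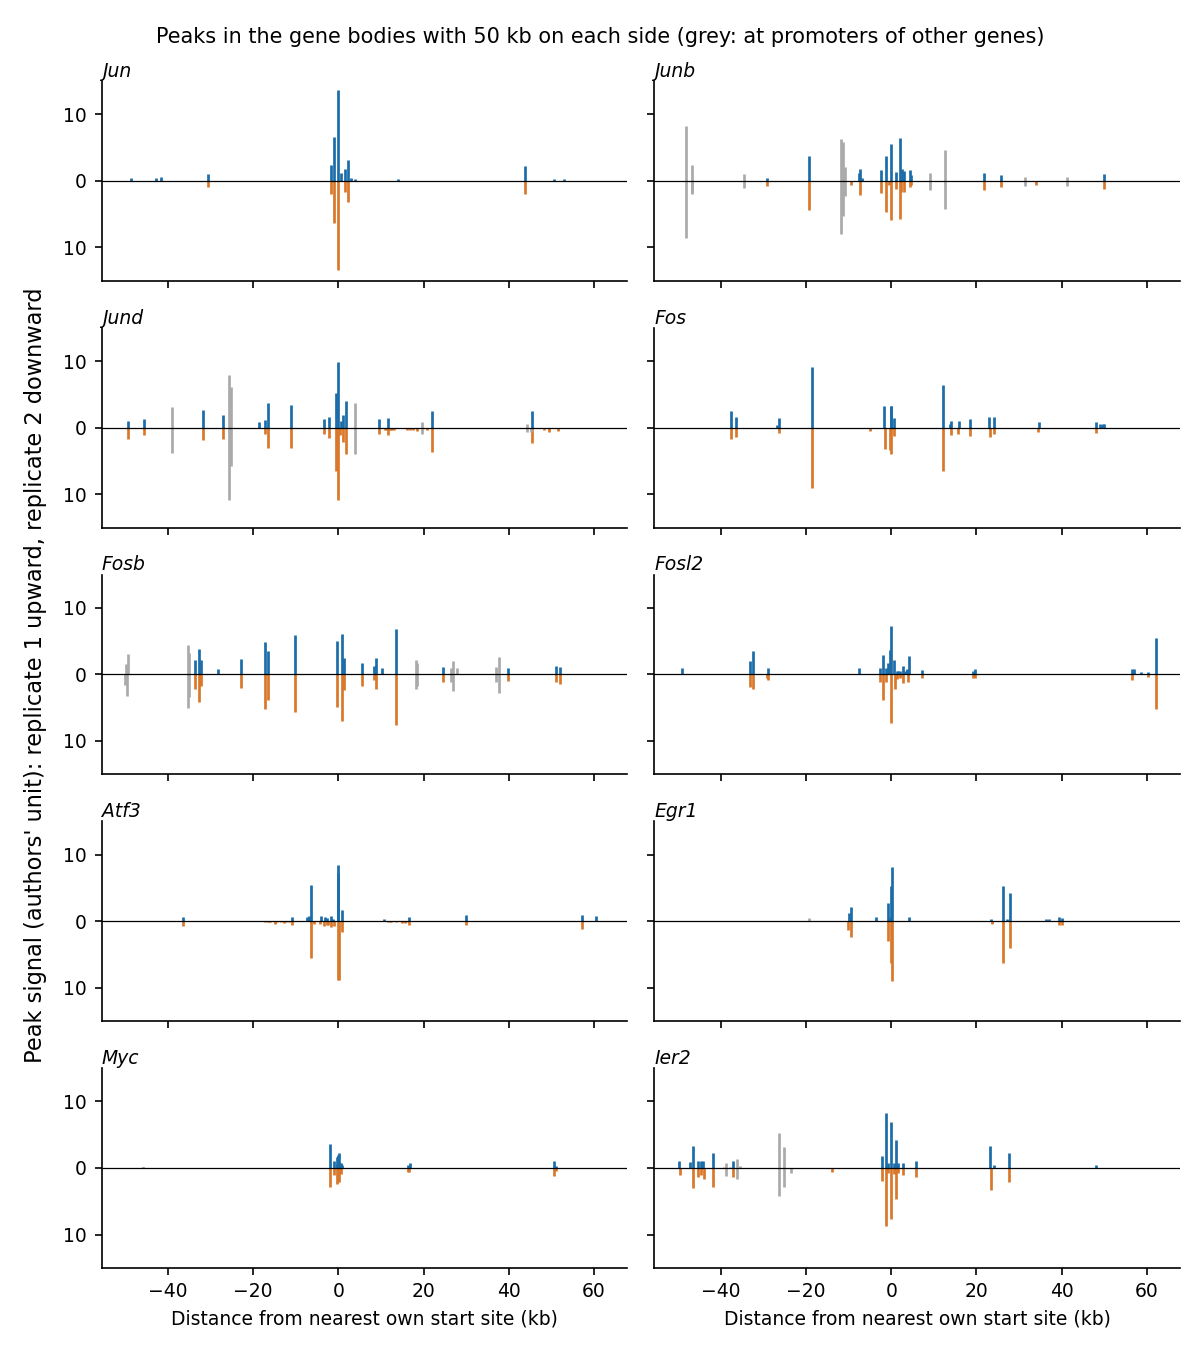
Peaks in the body of each gene with 50 kb on each side, by distance from the nearest start site of that gene (kb) and signal (authors' unit), with replicate 1 upward, replicate 2 downward and peaks at promoters of other protein-coding genes in grey. Fos has its strongest peak, with 9.07 and 9.03, away from its promoter, and the windows of Jun and Myc hold few strong peaks outside the gene itself.

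Fos had its strongest region outside the promoter. The peak at -18.5 kb (chr12:85455121-85455560, outside the protein-coding genes of GENCODE) had 9.07 in replicate 1 and 9.03 in replicate 2, far above the promoter signal in each. No protein-coding start site lay nearer to it than that of Fos. Another region 12.2 kb behind the Fos start (chr12:85485961-85486240) had 6.41 and 6.45, also above the promoter. Both were above percentile 96 of all peaks in each replicate. Which gene either region acts on was not tested.

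The strongest distal regions of the JUN genes lay within a few kb of the start site, and Jund had a further one at -16.5 kb. At Jun the peak at -1.14 kb (chr4:95053241-95053480) had 6.52 and 6.33 and lay 1 bp from an annotated start of Junos, the antisense transcript of Jun. The peak in the Jun 3′ untranslated region (chr4:95049981-95050180) had 3.16 and 3.15. At Junb the region 2.08 kb behind the start site (chr8:84976541-84976740) had 6.39 and 5.67 against 5.47 and 5.83 at the promoter. It lies past the coding exon and behind the end of the gene in the coding transcript. The start of a non-coding Junb transcript in GENCODE lies at its edge, at 84976542. A region at -1.31 kb of Junb had 3.75 and 4.62. At Jund the region 1.82 kb behind the start (chr8:70700681-70700860), just past the gene, had 4.04 and 3.94, and that at -16.5 kb (chr8:70682281-70682540), nearest to the start of Lsm4, 3.71 and 2.99.

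At Fosb the strongest distal peaks lay at 13.6 kb, in an untranslated exon of the neighbour Rtn2 (chr7:19295921-19296080, 6.78 and 7.62), and at -10.2 kb, over the non-coding gene D830036C21Rik (chr7:19320141-19320260, 5.92 and 5.64). Fosl2 had its strongest at 62.1 kb, past the end of the gene and nearest to the start of Plb1 (chr5:32197821-32198000, 5.41 and 5.25), and one at -2.00 kb with 2.92 and 3.82. The Atf3 region at -6.39 kb (chr1:191224321-191224540) had 5.40 and 5.46 and covered the start of the long non-coding RNA gene D730003I15Rik. This distance is from the first GENCODE start, which had no promoter peak, and the region lies much further from the open start inside the gene record. The next region of Atf3, 57.2 kb behind the open start and nearest to the start of Batf3, had only 1.00 and 1.14.

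Egr1 had a pair of regions 26.3 and 27.9 kb behind its start, with 5.27 and 6.33 at the first (chr18:34887461-34887640) and 4.30 and 3.96 at the second (chr18:34888961-34889160). Ier2 had a peak at -1.22 kb (chr8:84663961-84664180) with 8.21 and 8.74, above its own promoter in both replicates, and one in its untranslated region at 1.15 kb with 4.27 and 4.74. Myc had one at -1.95 kb (chr15:61983341-61983540) with 3.63 and 2.84, also above its promoter peaks, and one at 50.6 kb over the start sites of the non-coding RNA gene Pvt1 (chr15:62037801-62038200) with 1.12 and 1.15. A distal peak thus exceeded the strongest promoter peak of the gene in both replicates at Fos, Fosb, Ier2 and Myc.

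Peaks that were in 1 replicate had a lower median signal than shared peaks at each gene that had both kinds, by margins that differed between genes. The median signal of unshared peaks was 0.421 at Jun in replicate 1, 0.335 at Jund and 0.168 at Atf3 in replicate 2, while shared peaks at these genes had medians of 2.37, 2.02 and 0.724 in the same replicates. The margin was small in replicate 1 at Fosl2, with 0.865 unshared and 1.01 shared, and at Atf3, with 0.701 and 0.792. At Fosl2 an unshared promoter peak of replicate 1 (chr5:32135341-32135600) reached 3.67. Atf3 had 33 peaks in replicate 2 and 18 in replicate 1, although replicate 2 had the shorter list over the genome. Of the 33, 19 were unshared, and all but 1 of these lay in Atf3 introns. Jund had 39 against 25, with 15 unshared in replicate 2 over the neighbouring genes Iqcn, Gm3336 and Pde4c. Jun went the other way, with 7 peaks in replicate 2, all shared, and 16 in replicate 1.

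The promoters were searched on both strands for 13 motifs. The AP-1 site was read as TGACTCA or TGAGTCA, the CRE as TGACGTCA and the EGR site as GCGTGGGCG. The ETS core was CCGGAA, the general E-box was CACGTG and the myogenic E-box was CAGCTG. The GC box was GGGCGG, the CCAAT box was searched as spelled, the TEAD site was GGAATG and the STAT site was TTCNNNGAA. The CArG box, MEF2 site and NF-kB site were searched by their degenerate consensus. For the AP-1 site and the CRE, variants of the letters given were not counted. The stretches tgacatca in the Jun promoter and tgacgta in the Fos promoter therefore carry no mark. Motifs may overlap, and an ETS core or a CArG box can share bases with another match. A match is a stretch of letters and not a bound site.

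CArG boxes lay in the promoters of 3 of the 10 genes, Fos, Fosb and Egr1, against 14.0% of all promoters. The Fos match, CCATATTAGG at -304 bp, is the serum response element known from textbook work on this gene. It touched a footprint in replicate 2 (chr12:85473586-85473592) and none in replicate 1, where the nearest footprint was 47 bp away. The Fosb match, CCTTATATGG at -262 bp, likewise touched a footprint at its edge in replicate 2 (chr7:19310301-19310308) and missed one by 7 bp in replicate 1. Egr1 had 5 matches, at -402, -364, -348, -100 and -78 bp of the nearest start site, of which the one at -348 bp touched a footprint in both replicates and those at -364 and -78 bp in replicate 2. Over these 7 matches, 1 touched a footprint in replicate 1 and 5 in replicate 2, against 2.94% and 2.45% of the CArG matches in the promoters of all genes, open and closed. Outside the promoters, CArG boxes of the Fos downstream region (CCATATTTGG) and of the Junb downstream region (CCATATATGG) lay in footprints in both replicates, at chr12:85486111-85486133 and chr8:84976618-84976649 in replicate 1. Among footprints of the 10 windows, 2 of 792 in replicate 1 (0.253%) and 4 of 690 in replicate 2 (0.580%) held a whole CArG box within 5 bp of their edges, against 0.0801% and 0.0607% of all footprints. These are counts of a few sites.

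Exact CRE matches lay in the promoters of Jund, at -210 bp, and Ier2, at -42 bp, against 4.91% of all promoters. Each touched a footprint in both replicates, and that of Jund lay inside it, at chr8:70698722-70698749 in replicate 1 and chr8:70698720-70698748 in replicate 2. Over all promoters, open and closed, 55.0% and 52.8% of CRE matches touched a footprint, so a footprint on a CRE is common. MEF2 matches next to the start sites of Jun, CTATTTTTAG at -29 bp, and of Atf3, CTATTAATAG at -11 bp, were also within footprints in both replicates. At Jun the footprint spanned chr4:95052240-95052275 in replicate 1 and chr4:95052242-95052272 in replicate 2. At Atf3 it spanned chr1:191183330-191183358 and chr1:191183328-191183362. The other 3 MEF2 matches, at -713 and 937 bp of Atf3 and at -519 bp of Myc, touched none. So 2 of 5 matches did in each replicate, against 1.46% and 0.924% over all promoters, open and closed. The 10 promoters were all open, and the part of this in the contrast was not tested. A MEF2 match lay in 3 of the 10 promoters and in 31.3% of all promoters. Which factor left these footprints was not tested. ETS cores had 11 matches in the 10 promoters, of which 2 touched a footprint in replicate 1, 1 in replicate 2 and 1, that of Junb at 107 bp behind the start, in both. Over all promoters, open and closed, the shares were 17.9%, 16.8% and 12.9%. An NF-kB match lay in all 10 promoters and in 48.2% of all promoters. Of 23 such matches, 3 touched a footprint in replicate 1 and 2 in replicate 2, against 6.24% and 6.05% over all promoters. Myogenic E-boxes lay in 7 promoters, against 72.4%, with 17 matches. Of these, 1 touched a footprint in replicate 1 and 2 in replicate 2, against 3.46% and 3.02%. The 9 TEAD and 7 STAT matches touched none in either replicate.

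**Figure D4:**
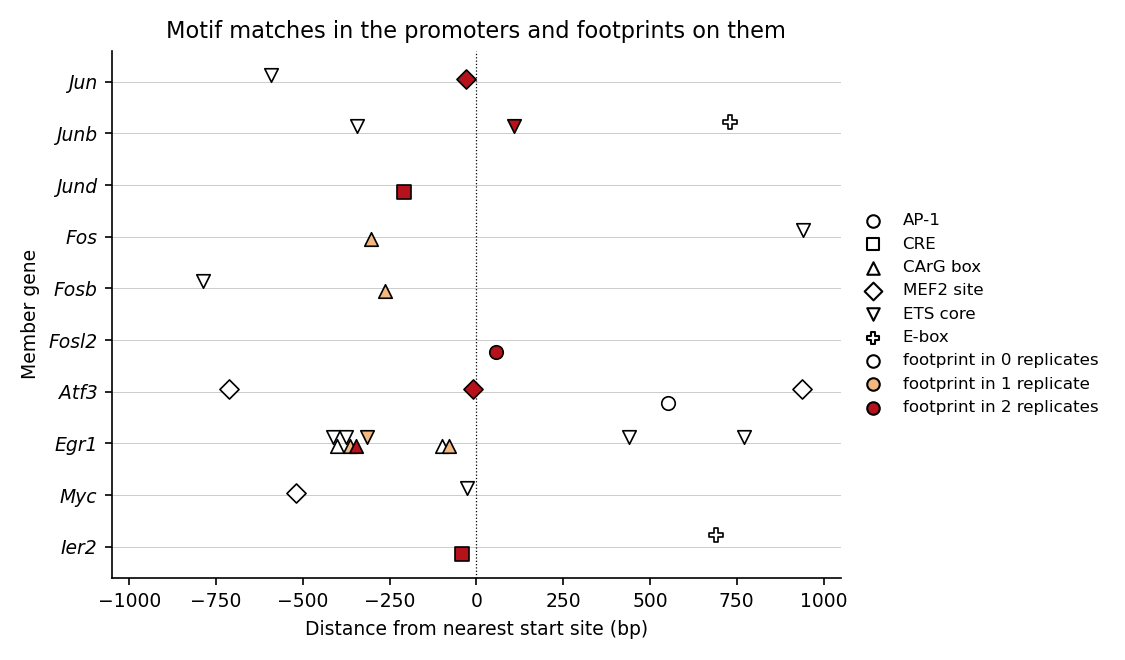
Matches to 6 of the 13 motifs in the promoters of the 10 genes by distance from the nearest start site (bp); shapes are motifs, shifted slightly within a row, and fill gives the number of replicates with a footprint that touches the match (white 0, orange 1, red 2). The plotted matches with a footprint in both replicates lie between -348 and 107 bp. Among motifs not plotted, an NF-kB match of Jund at -573 bp also had a footprint in both.

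Exact AP-1 matches were no more frequent at the 10 genes than the background. A match lay in 2 of the 10 promoters, those of Fosl2 and Atf3, against 34.5% of all promoters, and a difference of this size in so few promoters is no result about them. That of Fosl2, at 56 bp behind the start site, touched the edge of a footprint in both replicates (chr5:32135831-32135855 and chr5:32135840-32135854), and that of Atf3, at 552 bp, in neither. Of all AP-1 matches in promoters, open and closed, 2.53% and 1.70% touched a footprint. In the 10 windows 5 of 792 footprints in replicate 1 (0.631%) and 2 of 690 in replicate 2 (0.290%) held an AP-1 match within 5 bp of their edges, a mean of 0.461%, against 0.741% and 0.546% of all footprints. Of the shared peaks in the windows, 12 of 178 (6.74%) held an AP-1 match, against 6.68% of all shared peaks. The AP-1 footprint centred at -17314 bp of Fosb, at chr7:19327350-19327380 in replicate 1, was found in both replicates, in a peak with 4.80 and 5.27. This region was chosen after its values were seen. An AP-1 footprint 4012 bp behind the Jund start, in a peak near the start of Iqcn with 3.71 and 3.99, was found in both as well. In the Atf3 upstream region the AP-1 match touched a footprint in replicate 1 and missed one by 4 bp in replicate 2, while its ETS core and E-box were within one footprint in both. The MEF2 match of that region missed a footprint by 2 and 4 bp. In the Fos upstream region neither marked match touched a footprint in either replicate. The nearest lay 18 and 15 bp from the E-box and 9 bp from the myogenic E-box in both.

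Relatives of these genes were described from 3 lists. All 11 AP-1 relatives had a promoter peak in both replicates, led by Atf7, with 12.2 and 13.6, and Atf2, with 9.37 and 10.2, which both encode factors that pair with JUN proteins. Their median percentile was 59.0 and 57.2, below that of the 10 genes. The lowest 4, named after their values were seen, were Batf with 0.325 and 0.458, Batf3 with 0.411 and 0.587, Batf2 with 0.584 and 0.744, and Fosl1, which encodes the FOS protein FRA1, with 0.832 and 1.05. Of 35 other immediate early genes, 33 had a promoter peak in both replicates, with a median percentile of 76.6 and 76.1. The strongest were Per1, which encodes a clock protein, with 10.3 and 10.6, and Klf6, a zinc-finger factor, with 9.89 and 9.79. Egr4 and Npas4, known mainly from neurons, had no peak in either replicate. All 15 genes of factors and kinases upstream of this class were open in both, with a median percentile of 78.5 and 77.9. Mrtfa, which encodes an actin-regulated partner of SRF, had 11.0 and 12.1, and Mapk14, which encodes the stress kinase p38 alpha, had 11.1 and 10.5.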

How the data were processed

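DNase-seq files of 2 gastrocnemius samples were used as deposited. Per the deposited file descriptions, each library had its own peaks, sites and footprints, called on mm10 from filtered alignments. The caller, aligner and versions are not given in the sources used here. Column 7 of the authors' peak lists is the signal, in an unstated scale. The p-value type columns deposited with the sites and the footprints hold, in that order, false discovery rates below 0.05 and a constant 0.01. Of the 2 deposited peak lists per sample, the larger was used. Peaks overlapped by at least 1 bp; about 2.24% and 2.81% of peaks overlap another of the same list and were counted separately. Start sites came from GENCODE M21, sequences from the GRCm38.p6 genome and RefSeq's promoter table, which held 7 of the 10 genes (not Egr1, Myc and Ier2). Of the pathway symbols, 4 were matched through RefSeq synonyms.

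The members and lists were chosen with earlier results of these data known. Named distal peaks were, per gene, the 2 shared peaks of highest mean rank over 1000 bp from every protein-coding start. In each pathway list the 2 genes of highest mean rank and every gene without a peak were named. Overlap, coverage and motif code (Python 3.11.15, numpy 2.4.6, pandas 2.3.3) was tested on simulated data. Other windows, flanks, lists, thresholds and start sites were tried.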

Additional observations from a re-analysis of the deposited data

How the results depend on the processing

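The count of 10 open promoters was 9 with the first start site alone and 10 under every other setting tried. The median percentile, 85.6, became 88.6 with a promoter window of 2500 bp, 84.7 with the first start site alone, 84.5 with the strict peak list and 80.4 with RefSeq starts, an alternative chosen after seeing the data. The share of promoter bases in sites, 80.7%, was 96.0% at 500 bp, 59.8% at 2500 bp and 63.9% at a rate under 0.001. Promoter footprints, a mean of 149, were 238.5 at 2500 bp, 123 at 500 bp, 118.5 with the first start site alone and 97 inside peaks only. The 178 shared peaks became 113 with flanks of 20 kb, 293 with 100 kb and 48 in gene bodies alone. The AP-1 share of footprints, 0.461%, was 0.0631% without extension and 1.00% with 10 bp, where all footprints had 0.231% and 0.141%, and 1.16% and 0.897%, in the 2 replicates. Without 1 replicate the median percentile ranged from 85.1 to 86.1, the share of bases from 79.1% to 82.3%, the footprints from 147 to 151 and the AP-1 share from 0.290% to 0.631%. The other alternatives moved percentiles and shares by no more than the spread between replicates. They moved counts by less than 1.5 times, which can exceed that spread. No paired analysis was possible because all libraries belong to one group. Read depth is unknown, and its part in weak peaks and footprints seen in 1 replicate was not tested.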
